A study of Mus musculus with 7 samples.

Results

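The genes of integrins, laminins and other basement membrane proteins were described in differentiating oligodendroglia with and without KLF13, a Krüppel-like transcription factor. They were chosen by symbol and comprise 18 integrin alpha subunits, 8 integrin beta subunits, 11 laminin chains, and Nid1, Nid2, Fn1, Dag1, Agrn and Hspg2, in all 43 of the 49315 genes in the count files. RNA was sequenced from primary oligodendroglia of mouse brain after 6 days under differentiating conditions in SATO medium, in 4 control libraries (genotype Klf13-wt) and 3 libraries of Klf13 knockout cells. Per the study's methods, the cells came from newborn pups of both sexes, were purified from mixed glial cultures by shake-off and depletion of microglia, grew on dishes coated with laminin besides poly-d-lysine, and differentiated in the presence of thyroid hormones. The knockout was constitutive, so that every cell type left in these cultures carried the deletion. The strain was not given.

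Integrins are surface receptors made of an alpha and a beta subunit. They bind matrix proteins such as laminin and fibronectin outside the cell and link them to actin and to kinases such as FAK and the Src family inside. Laminins are trimers of an alpha, a beta and a gamma chain that polymerise into basement membranes, where nidogens, perlecan (Hspg2) and agrin join them to other components, and dystroglycan (Dag1) is a further laminin receptor. In oligodendrocytes, laminin receptors containing Itgb1 and Itga6, as well as dystroglycan, are known to act in survival, process outgrowth and myelination.

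Klf13 itself was at 10915, 11769, 12000 and 10670 normalized counts in control replicates 1 to 4 and at 802, 876 and 961 in the knockout, a log2 fold change of -3.69 (SE 0.089, edgeR's quasi-likelihood test, adjusted p = 6.77e-06). Libraries held 24507471 to 59596479 counts on genes. Of the 9 oligodendroglia markers, 4 were lower in the knockout and none higher (edgeR, also none at an unadjusted p under 0.05 and none by DESeq2), and their summed RPKM was 3963 to 4659 in the controls and 1514 to 1687 in the knockout. Markers of other cells were present as well. Those of microglia and macrophages summed to 403 to 484 RPKM in control replicates 1, 2 and 4 and to 1786 in control replicate 3, those of fibroblasts and mural cells to 109 in control replicates 1 and 2 but to 281 and 219 in replicates 3 and 4, and none of these markers was at 0 in every library. In the knockout these lists summed to 439 to 859 and to 63.0 to 111 RPKM. Of the astrocyte markers, 8 of 10 were higher in the knockout, with sums of 1089 to 1252 RPKM in the controls and 1321 to 1506 in the knockout, and of the neuron markers 6 of 10 were higher, with 111 to 131 and 169 to 227 RPKM (edgeR). The astrocyte markers S100b (log2 fold change -0.54) and Fgfr3 (-0.22) and the neuron markers Nefm (-0.73) and Nefl (-0.45) had negative values and did not pass edgeR's test. DESeq2 gave 1 lower astrocyte marker. Of all genes tested, 12.2% were lower and 11.6% higher (edgeR). For the astrocyte and neuron lists the sums did not overlap between groups, and their part in the results below was not tested. Fewer cells of a type and less RNA per cell cannot be told apart in such bulk samples. Control replicates 3 and 4 thus stood apart from the other controls in markers of fibroblasts and mural cells, and control replicate 3 alone in those of microglia and macrophages. For genes in which replicates 3 and 4 were the highest controls, values without them are given beside the main results.

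Several integrin subunits were lower in the knockout libraries, of which Itgb4, a partner of Itga6, passed in all 15 alternative settings, and the laminin chains that passed moved in both directions. Itgb1, the common beta subunit, and Itgav, the common alpha subunit, were lower too, but passed in only 6 and 10 of these settings, and control replicates 3 and 4, with their high fibroblast and mural markers, were the highest libraries for both. Of the 43 genes, 39 had enough counts for the test. The other 4 had few counts, with 1 to 2 counts of Itgad in each control library and 0 in each knockout library, 0 to 3 counts of Itgb6, 1 to 7 of Lamc3 and 3 to 29 of Itgax. With adjusted p-values up to 0.05 counted as passing (edgeR's quasi-likelihood test over 18352 genes), 7 genes were lower (Itga8, Itgav, Itgb1, Itgb3, Itgb4, Itgb7 and Lama2) and 2 were higher (Lama1 and Lamb2), against a background of 12.2% lower and 11.6% higher among all genes tested. The 7 lower genes are 17.9% and the 2 higher genes 5.1% of those tested. With the thresholds of the study, which further ask for a log2 fold change of 1 or more in size, 2 genes were lower (Itgb4 and Itga8) and 1 was higher (Lama1), where the background was 3.08% and 3.97%. DESeq2, which the study used, gave 14 lower genes, among them all 7 named, and 2 higher ones. At the thresholds of the study it gave 6 lower genes. The share of all genes by DESeq2 is not given here. The median log2 fold change was -0.40, compared with -0.0037 over all genes, and 30 of 39 values were below 0 (76.9%, against 50.4% of all genes). With the fibroblast and mural marker level as a term, this median was -0.08, compared with 0.028 over all genes, and only Itgb4 was lower. The groups did not overlap in 11 genes with lower and 4 with higher knockout values, a pattern that 18% and 18.3% of all genes tested showed.

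With the replicate number as a block, 13 genes were lower and 1 was higher, against a background of 11.1% and 9.49%. The labels do not say whether same-numbered libraries belong together, so this pairing is assumed. With the thresholds of the study, the block gave 5 lower genes and 0 higher ones. Compared with the same fit without it, the block added Itga4, Itga5, Itgal, Lamc1, Nid1, Hspg2 and Fn1 to the lower genes, and Lama1 and Lama2 no longer passed. Control replicate 4 has no knockout partner and adds nothing to the difference in the blocked fit. When it was left out with no block, Lamc1 passed as well, whereas the other 6 added genes did not. The number of lower genes depended on single libraries, with 4 without control replicate 4 (Itgb4, Itgb7, Lama2 and Lamc1), 2 without knockout replicate 1, 1 without knockout replicate 2 and 4 without knockout replicate 3. The number of higher genes was 1 without control replicate 2, control replicate 4 or knockout replicate 2, and 0 without control replicate 1, knockout replicate 1 or knockout replicate 3. At the thresholds of the study, the 2 lower calls became 6 without control replicate 2 and 1 without control replicate 4 or knockout replicate 2 or 3, and the higher call of Lama1 was kept only without control replicate 3 or knockout replicate 2. Without control replicates 3 and 4 there were 4 lower genes and 0 higher ones, with 1 lower and 0 higher at the thresholds of the study.

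**Figure D1:**
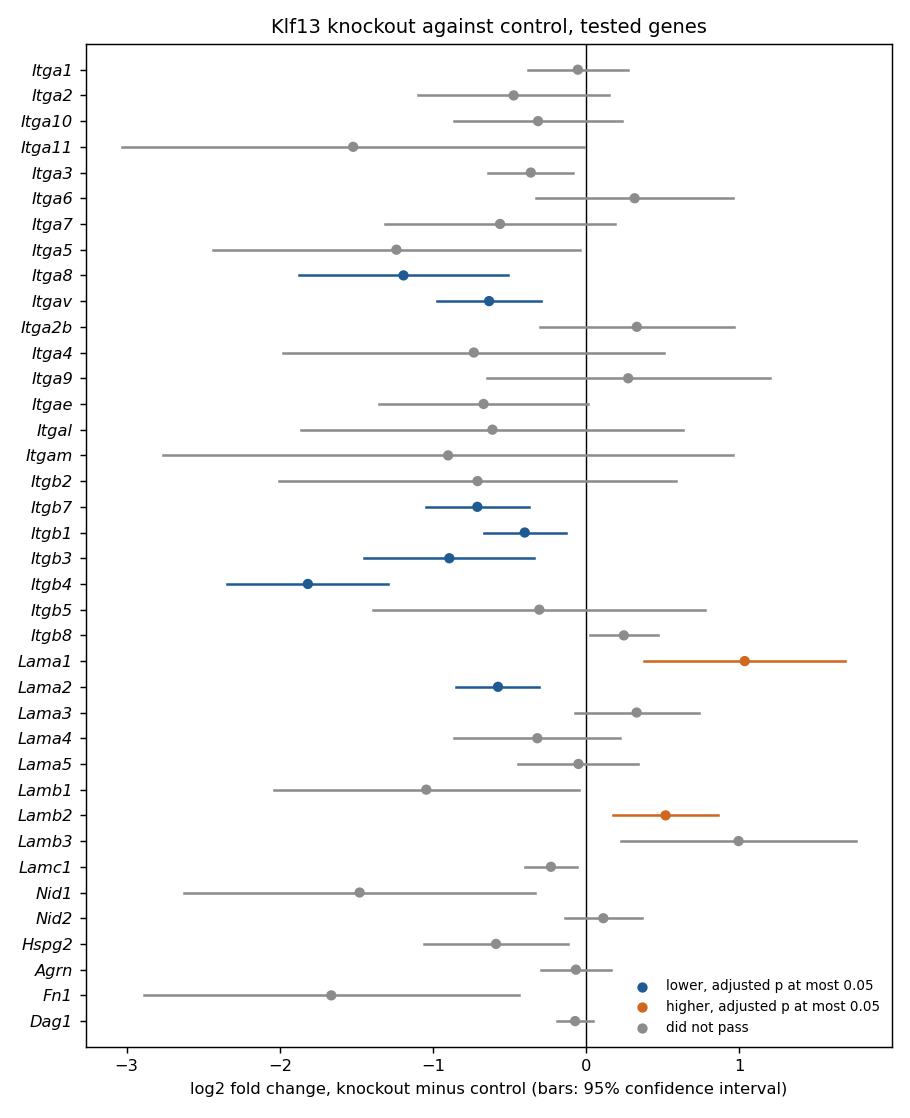
Log2 fold change of the tested genes reported here, knockout against control (x axis), with 95% confidence intervals as bars, in the order of their roles. The 7 genes in blue were lower and the 2 in orange higher by adjusted p, and the widest intervals belong to Itgam and Itga11.

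The 250 bases before the RefSeq start of 4 of the lower integrin genes are shown (GRCm38.p6, 5′ to 3′ on the strand of the gene). These are the lower genes with their highest values in control replicates 3 and 4. None passed without that pair or with the fibroblast and mural marker level as a term. Whether they are regulated together was not tested. Klf proteins bind GC-rich and CACC-type elements, and capitals mark matches to the Klf motif used in the study, spelled out as ACNCCC or as CCNCCC, in which N stands for any base but cytosine, on either strand, overlapping matches being counted separately. The stretches lie at chr8:128685404-128685653 on the plus strand (Itgb1), chr2:83724147-83724396 on the plus strand (Itgav), chr15:102231936-102232185 on the minus strand (Itgb7) and chr2:12301945-12302194 on the minus strand (Itga8).
Itgb1: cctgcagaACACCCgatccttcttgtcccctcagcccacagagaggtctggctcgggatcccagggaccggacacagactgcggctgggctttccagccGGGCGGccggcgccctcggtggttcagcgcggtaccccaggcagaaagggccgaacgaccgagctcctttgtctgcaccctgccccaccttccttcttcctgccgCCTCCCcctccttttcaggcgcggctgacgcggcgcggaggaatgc
Itgav: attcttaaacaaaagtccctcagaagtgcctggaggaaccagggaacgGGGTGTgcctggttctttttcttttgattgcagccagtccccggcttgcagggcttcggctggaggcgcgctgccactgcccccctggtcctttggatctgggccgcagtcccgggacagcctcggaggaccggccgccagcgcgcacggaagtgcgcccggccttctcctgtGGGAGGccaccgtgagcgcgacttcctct
Itgb7: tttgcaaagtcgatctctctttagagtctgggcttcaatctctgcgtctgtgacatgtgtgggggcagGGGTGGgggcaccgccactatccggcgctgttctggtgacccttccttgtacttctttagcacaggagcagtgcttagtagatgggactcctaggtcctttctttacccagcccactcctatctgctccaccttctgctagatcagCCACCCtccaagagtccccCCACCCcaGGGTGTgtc
Itga8: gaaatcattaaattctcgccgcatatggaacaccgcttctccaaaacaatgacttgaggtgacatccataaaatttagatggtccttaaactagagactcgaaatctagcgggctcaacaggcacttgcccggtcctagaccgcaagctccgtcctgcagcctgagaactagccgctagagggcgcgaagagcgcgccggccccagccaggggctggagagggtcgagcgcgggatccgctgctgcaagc
They held 3, 2, 4 and 0 matches in this order. RefSeq promoters were found for 27 of the 43 genes, and 26 of these 27 (96.3%) held at least 1 match, with a median of 3. Of the promoters with all 250 bases among the 32851 in the reference, 72.6% did, with a median of 1. For each member the entry nearest its annotated start was taken, whereas the reference was not narrowed by gene or by expression. The sets are thus unlike, and the difference between them was not tested. The highest number, 15, was found for Agrn, and Hspg2 had 12, although neither gene passed edgeR's test without the block. Lama2 and Lamb2 had 1 match each. Lama1, Itgb3 and Itgb4 were not in the promoter table. A match describes the letters in this window and is not a binding site.

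Among integrin beta subunits, Itgb1 was by far the most abundant per length. It pairs with most alpha subunits of matrix receptors and lies at chr8:128685654-128733200 in GRCm38. Itgb1 was at 27477, 26916, 33948 and 34407 normalized counts in control replicates 1 to 4 and at 23985, 21051 and 24688 in the knockout. All knockout values were below all control values, and the controls themselves fell into a lower and a higher pair. The log2 fold change was -0.40 (SE 0.11, edgeR, adjusted p = 0.0417), which is 1.32-fold lower. Leaving out any library but control replicate 2 ended this call (adjusted p 0.0585 to 0.138), as did library sizes that leave out the 100 highest genes (adjusted p = 0.0718), and without control replicates 3 and 4 the log2 fold change was -0.23 (adjusted p = 0.124). With the fibroblast and mural marker level as a term in the fit it was -0.11 (adjusted p = 0.476). Despite the drop, Itgb1 took 72.7% ± 6.94 of the summed integrin beta RPKM in the controls (SD, n = 4) and 69.8% ± 3.32 in the knockout (SD, n = 3), a difference smaller than the spread between libraries.

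Itgb5 and Itgb8 followed in level, with 32.9 and 16.6 RPKM in the controls and 26.6 and 19.6 in the knockout, compared with 171 and 130 RPKM for Itgb1. Both pair with Itgav, and the Itgb8 receptor is known for activating latent TGF-beta. Itgb5 was at 3003, 3193, 10003 and 3259 normalized counts in the controls and at 3048, 3800 and 4944 in the knockout. Only control replicate 3 stood high, and the groups overlapped (log2 fold change -0.31, adjusted p = 0.686). Itgb8 was at 8734, 8842, 7230 and 7410 normalized counts in the controls and at 9430, 8871 and 10352 in the knockout. The groups did not overlap, but the gene did not pass the test (log2 fold change 0.25, SE 0.10, adjusted p = 0.106). Together, Itgb1, Itgb5 and Itgb8 accounted for 90.04% to 95.3% of integrin beta RPKM in every library.

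The clearest difference was seen in a gene of low level, Itgb4, the partner of Itga6 in hemidesmosomes, at chr11:115974709-116008412. Its normalized counts were 119, 181, 143 and 137 in the controls but only 45.1, 46.7 and 32.0 in the knockout. The lowest control was thus more than 2 times the highest knockout library. This amounts to a log2 fold change of -1.82 (SE 0.23, 95% confidence interval -2.34 to -1.29, edgeR, adjusted p = 0.00219), or 3.52-fold lower, and Itgb4 passed in all 15 alternative settings, including those without control replicates 3 and 4 and with the fibroblast and mural marker level as a term. Its level per length was 0.470 RPKM in the controls and 0.134 in the knockout. An uncharacterised gene on the opposite strand, B230344G16Rik, shares 537 exonic bases with Itgb4 and had 95 counts over the 7 libraries, compared with 674 for Itgb4.

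Itgb3, a partner of Itgav in vitronectin receptors (chr11:104608000-104670476), was at 618, 701, 490 and 913 normalized counts in the controls and at 468, 329 and 308 in the knockout. The groups were separate, though control replicate 3 and knockout replicate 1 nearly met. Itgb3 had a log2 fold change of -0.89 (SE 0.24, edgeR, adjusted p = 0.0332), 1.86-fold lower, and the call held without control replicates 3 and 4. It was lost without control replicate 1, 2 or 4 or without knockout replicate 2 or 3 (adjusted p 0.0558 to 0.114). Of all 7 tested beta subunits, 4 were lower and none was higher, where 12.2% and 11.6% of all genes tested were (edgeR, 1 higher at an unadjusted p under 0.05, Itgb8, and none by DESeq2), with a median log2 fold change of -0.71.

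**Figure D2:**
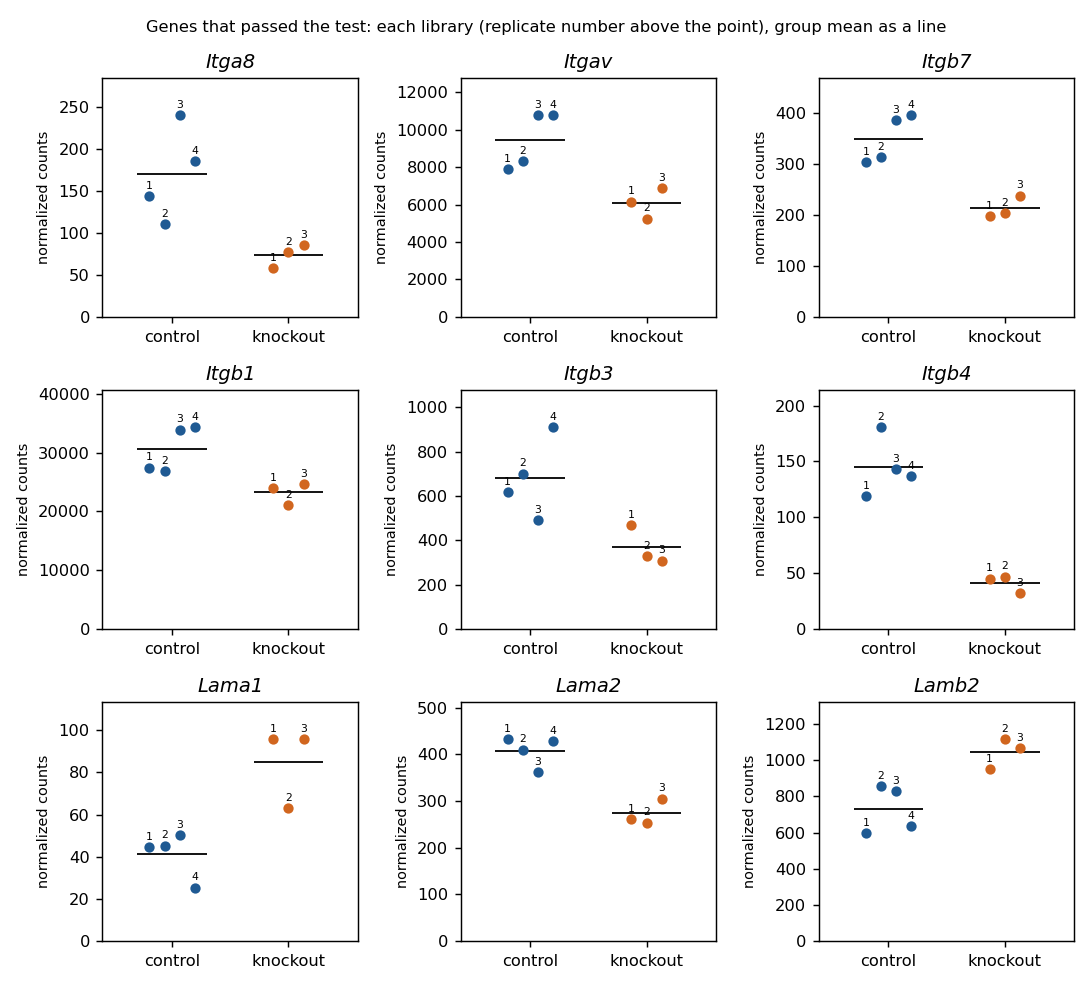
Normalized counts (y axis, starting at 0) of the 9 genes that passed the test, with 1 point per library, the replicate number above it and the group mean as a line. Control and knockout do not overlap in any of the 9 genes, and control replicates 3 and 4 are the highest for Itga8, Itgav, Itgb7 and Itgb1.

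The alpha subunits that recognise RGD sequences, as in fibronectin and vitronectin, contained the remaining lower integrin genes of the matrix-binding type. Itgav (chr2:83724397-83806916) was the alpha subunit with the highest level, 20.02 RPKM in the controls and 12.9 in the knockout. It was at 7911, 8324, 10791 and 10777 normalized counts in the controls and at 6162, 5254 and 6860 in the knockout. As for Itgb1, control replicates 3 and 4 were above the other controls, and all controls were above the knockout. Itgav had a log2 fold change of -0.63 (SE 0.15, edgeR, adjusted p = 0.0205), 1.55-fold lower. The call was lost without control replicate 4 or without knockout replicate 1 or 2 (adjusted p 0.0557 to 0.0782), without control replicates 3 and 4 the value was -0.42 (adjusted p = 0.0639), and with the marker term it was -0.26 (adjusted p = 0.173).

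Itga8, which binds nephronectin and fibronectin together with Itgb1, lies at chr2:12106632-12301922. It was at 144, 111, 241 and 186 normalized counts in the controls and at 57.8, 77.7 and 86.1 in the knockout. The groups were separate, with control replicate 3 highest. Its log2 fold change was -1.19 (SE 0.29, edgeR, adjusted p = 0.0252), 2.29-fold lower. The call was lost without control replicate 4 or any knockout library (adjusted p 0.0553 to 0.0948), without control replicates 3 and 4 the value was -0.77 (adjusted p = 0.0949), and with the marker term it was -0.51 (adjusted p = 0.347). The noncoding gene E030013I19Rik on the opposite strand shares 372 exonic bases with Itga8 and had 35 counts, compared with 885 for Itga8.

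Itga5, the classical fibronectin receptor subunit, was at 820, 684, 2591 and 1591 normalized counts in the controls and at 432, 470 and 897 in the knockout. Knockout replicate 3 lay above control replicates 1 and 2, so that the groups overlapped. Itga5 had a log2 fold change of -1.24 (SE 0.51, edgeR, adjusted p = 0.125), which was -1.01 with the replicate block (adjusted p = 0.0236). DESeq2 also called Itga5 lower. Without control replicates 3 and 4 it was -0.32. Itga2b, mainly known from platelets, was at 34.3 to 71.4 normalized counts in the 7 libraries (log2 fold change 0.33, adjusted p = 0.436). Over the 4 RGD-binding alpha subunits, summed RPKM was 21.6, 21.8, 37.0 and 31.8 in the controls and 15.7, 14.1 and 19.7 in the knockout, so that every knockout library was below every control library.

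The 3 laminin-binding alpha subunits did not pass edgeR's test, although Itga3 was lower by DESeq2 (-0.37, adjusted p = 0.0227). Itga6, the laminin receptor subunit best known in oligodendrocytes, was at 3538, 3640, 5968 and 2560 normalized counts in the controls and at 3999, 4776 and 5880 in the knockout. Control replicate 3 was the highest and control replicate 4 the lowest of all libraries, and the log2 fold change was 0.32 (SE 0.27, 95% confidence interval -0.32 to 0.96, edgeR, adjusted p = 0.461). Relative to the other alpha subunits, however, Itga6 was higher in the knockout, with 20.8%, 20.6%, 18.3% and 12.6% of summed integrin alpha RPKM in the controls and 27.9%, 32.0% and 28.8% in the knockout. Those shares did not overlap and were not tested. In contrast, the share of Itgav was 37.7% ± 7.06 in the controls (SD, n = 4) and 31.3% ± 4.18 in the knockout (SD, n = 3), with overlap.

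Itga7, known as the laminin receptor subunit of muscle, was at 467, 741, 984 and 412 normalized counts in the controls and at 372, 552 and 395 in the knockout (log2 fold change -0.56, adjusted p = 0.256). Itga3 was at 390, 529, 439 and 452 in the controls and at 357, 338 and 362 in the knockout. These groups did not overlap, and the log2 fold change of Itga3 was -0.36 (SE 0.12, edgeR, adjusted p = 0.0646, unadjusted p under 0.05). Level differences among the 3 genes were marked, with 9.90 RPKM for Itga6, 3.69 for Itga7 and 1.80 for Itga3 in the controls.

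The collagen-binding subunits Itga1, Itga2, Itga10 and Itga11 were all low. Itga1 led with 1.30 RPKM in the controls and 1.25 in the knockout, and its normalized counts ranged from 306 to 387 in the controls and from 278 to 372 in the knockout (log2 fold change -0.05, 95% confidence interval -0.38 to 0.27, adjusted p = 0.817). Itga2 followed with control values of 108, 140, 104 and 90.8 normalized counts and knockout values of 108, 54.3 and 80.0 (log2 fold change -0.47, adjusted p = 0.250). Itga11, a subunit of mesenchymal cells, was at 48.6, 21.1, 89.2 and 128 normalized counts in the controls and at 12.6, 19.9 and 39.6 in the knockout. It had one of the lowest log2 fold changes, -1.52, but also a wide error (SE 0.65, edgeR, adjusted p = 0.134), and without control replicates 3 and 4 it was at -0.45 (adjusted p = 0.685). Itga10 shares 33.5% of its exonic length with Gm42957 on the same strand and was at 32.0 to 57.1 normalized counts (adjusted p = 0.387).

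Itga4 and Itga9, receptor subunits for VCAM1, fibronectin and osteopontin, varied widely between the controls. Itga9 was at 639, 551, 1572 and 739 normalized counts in the controls and at 832, 861 and 1476 in the knockout (log2 fold change 0.27, adjusted p = 0.670). Itga4 was at 254, 239, 790 and 281 in the controls and at 148, 175 and 377 in the knockout. Replicate 3 was the highest library in each group for both genes. The log2 fold change of Itga4 was -0.73 (SE 0.53, edgeR, adjusted p = 0.374) and -0.78 with the replicate block (adjusted p = 0.0264). Over all 16 tested alpha subunits, leukocyte types included, 2 were lower and none was higher (edgeR), with a median log2 fold change of -0.59. At an unadjusted p under 0.05, 5 were lower, by DESeq2 4 were, and with the replicate block 5 were, with none higher in any of these. The edgeR count of 2 is near the 12.2% of all genes tested, whereas the 5 with the block stand against 11.1%.

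Of the 7 integrin subunits of leukocytes, several of which microglia also express, 5 were tested and 1 was lower, against a background of 12.2%. Itgb2, the beta subunit of leukocyte integrins, was at 1022, 779, 3290 and 987 normalized counts in the controls and at 670, 713 and 1395 in the knockout (11.3 and 6.90 RPKM, log2 fold change -0.71, SE 0.56, edgeR, adjusted p = 0.411). Its partner Itgam, or CD11b, was at 371, 266, 1916 and 383 in the controls and at 213, 250 and 707 in the knockout (log2 fold change -0.90, SE 0.80, adjusted p = 0.471). Itgal, or CD11a, was at 525, 509, 1535 and 461 in the controls and at 287, 395 and 795 in the knockout. For all 3 genes, replicate 3 was the highest library of its group, as it was for the summed microglia and macrophage markers (1786 RPKM in control replicate 3 and 859 in knockout replicate 3). The log2 fold change of Itgal was -0.61 (adjusted p = 0.464) and -0.73 with the block (adjusted p = 0.0242). Of the 14 microglia and macrophage markers, none passed the test in either direction (edgeR, none at an unadjusted p under 0.05 and none by DESeq2).

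Itgb7, otherwise known from lymphocytes, was the only leukocyte subunit that passed the test. It lies at chr15:102215995-102231935 and was at 304, 314, 386 and 397 normalized counts in the controls and at 199, 204 and 238 in the knockout. Control replicates 3 and 4 were alike and slightly above the others, with no peak in replicate 3, and the groups were separate. Its log2 fold change was -0.71 (SE 0.14, edgeR, adjusted p = 0.0129), 1.64-fold lower. The call was lost without knockout replicate 1 or 2 (adjusted p 0.0629 and 0.0546), without control replicates 3 and 4 the value was -0.53 (adjusted p = 0.0553), and with the marker term it was -0.43 (adjusted p = 0.163). Itgae, its partner on intraepithelial lymphocytes, was at 14.4 to 32.4 normalized counts (log2 fold change -0.67, adjusted p = 0.142). About 68.7% of the exonic length of Itgam is shared with Gm49368 on the same strand, which had 16 counts in all.

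**Figure D3:**
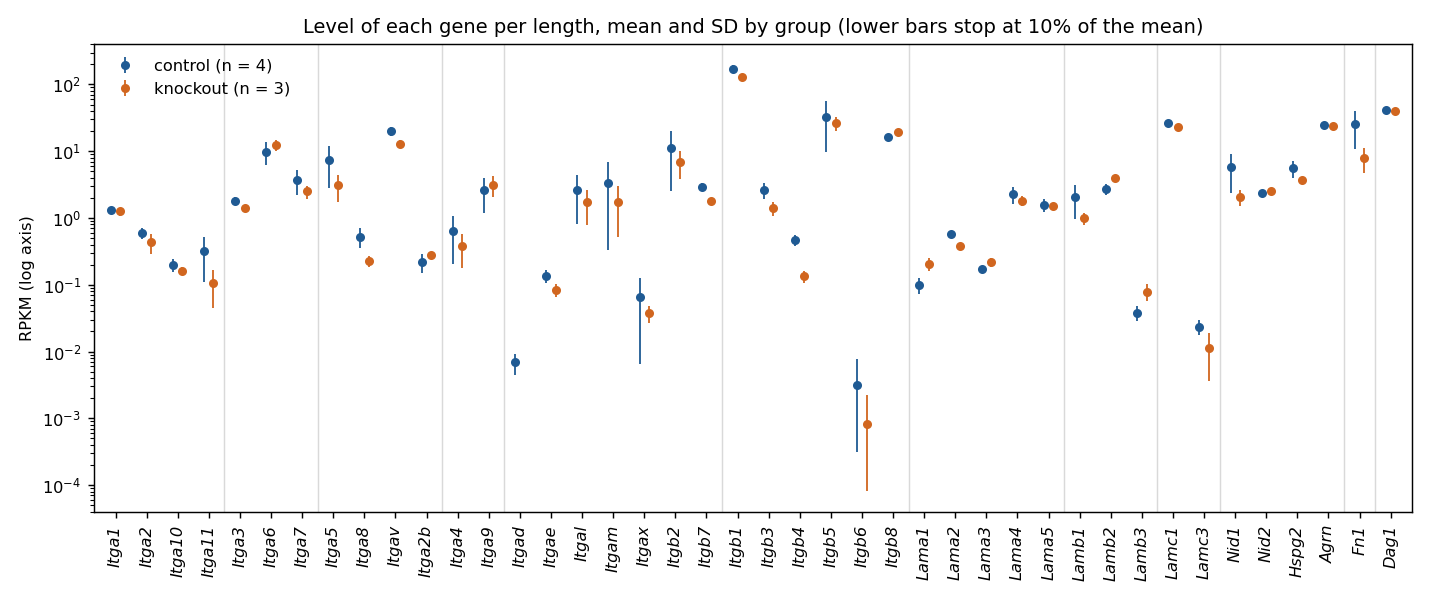
RPKM (log axis) of the genes reported here, mean and SD in control (blue, n = 4) and knockout (orange, n = 3), with vertical lines between roles. Itgb1 has the highest level, Itgb6, Itgad and Lamc3 are at the bottom, and Itgad has no knockout point because all 3 libraries were at 0.

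Lamc1, the gamma chain of most laminins, had the highest level per length of the laminin chains, with 26.6 RPKM in the controls and 22.7 in the knockout. Lamc1 was at 9757, 10097, 10280 and 8567 normalized counts in the controls and at 8341, 8126 and 8285 in the knockout. The difference was small and the groups were separate, with a log2 fold change of -0.23 (SE 0.07, edgeR, adjusted p = 0.0546). With the replicate block it was -0.28 (adjusted p = 0.0247), and without control replicates 3 and 4 it was -0.27 (adjusted p = 0.0244). Lamc1 contributed 73.2% ± 3.04 of the summed laminin RPKM in the controls (SD, n = 4) and 70.9% ± 0.417 in the knockout (SD, n = 3).

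Per length, all alpha chains together reached only 4.66 RPKM in the controls and 4.12 in the knockout, and all beta chains 4.80 and 4.98, against 26.6 and 22.7 for Lamc1 alone. Lama2, the alpha chain of the laminin whose loss causes muscular dystrophy with changes of white matter, lies at chr10:26980036-27619758. It was at 433, 410, 361 and 428 normalized counts in the controls and at 262, 254 and 305 in the knockout. The controls were close to each other, with a coefficient of variation of 8.04%, and above all knockout libraries. Lama2 had a log2 fold change of -0.58 (SE 0.12, edgeR, adjusted p = 0.0127), 1.49-fold lower, and the call held without control replicates 3 and 4. It was lost with the replicate block (-0.55, adjusted p = 0.0511) and without knockout replicate 1 or 2 (adjusted p 0.0611 and 0.0540).

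Lama1, the alpha chain of early embryonic basement membranes, went the opposite way (chr17:67697265-67822645). It was at 44.6, 45.3, 50.3 and 25.3 normalized counts in the controls and at 95.7, 63.2 and 95.96 in the knockout. Control replicate 4 was the lowest library, and the groups were separate. Lama1 had a log2 fold change of 1.04 (SE 0.28, edgeR, adjusted p = 0.0356), 2.05-fold higher at a level of only 0.0988 and 0.203 RPKM. It did not pass with the replicate block (0.83, adjusted p = 0.0650), without control replicate 1 or 2 or knockout replicate 1 or 3 (adjusted p 0.0580 to 0.103), or without control replicates 3 and 4 (0.90, adjusted p = 0.0886).

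The most abundant alpha chains per length, Lama4 and Lama5, which are prominent in vascular basement membranes, did not pass the test. Lama4 was at 1254, 1101, 806 and 1619 normalized counts in the controls and at 1152, 839 and 892 in the knockout (log2 fold change -0.32, SE 0.23, edgeR, adjusted p = 0.375). Lama5 was at 840, 992, 720 and 584 in the controls and at 762, 756 and 753 in the knockout (log2 fold change -0.05, 95% confidence interval -0.44 to 0.34, adjusted p = 0.863). The knockout libraries were nearly identical for Lama5 and lay within the range of the controls. Lama3, of epithelial laminin, was at 72.4 to 90.3 normalized counts in the controls against 84.55 to 114 in the knockout (adjusted p = 0.218).

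The beta chains differed in sign, and only Lamb2 passed edgeR's test. Lamb2 (chr9:108479736-108490530), the beta chain of synaptic and glomerular laminins, was at 597, 859, 830 and 635 normalized counts in the controls and at 950, 1119 and 1067 in the knockout. All knockout libraries were above all controls, and the log2 fold change was 0.52 (SE 0.15, edgeR, adjusted p = 0.0408), 1.43-fold higher. The call was lost without control replicate 1 or 4 or any knockout library (adjusted p 0.0564 to 0.129) and without control replicates 3 and 4, where the value stayed at 0.52 (adjusted p = 0.105). Lamb1, the more widespread beta chain, was at 536, 434, 1255 and 1312 in the controls and at 518, 345 and 430 in the knockout. Knockout replicate 1 lay between control replicates 1 and 2 (log2 fold change -1.04, SE 0.43, adjusted p = 0.121), and without control replicates 3 and 4 the value was -0.18 (adjusted p = 0.623). DESeq2, with all libraries, called Lamb1 lower. Per length, Lamb2 stood at 2.73 RPKM next to 2.03 for Lamb1 in the controls and at 3.91 next to 0.989 in the knockout. Lamb3 was at 6.86 to 13.5 normalized counts in the controls against 18.6 to 30.7 in the knockout, without overlap (log2 fold change 0.99, SE 0.33, adjusted p = 0.0649). Of the 10 tested laminin chains, 1 was lower and 2 were higher by edgeR, with a median log2 fold change of -0.14. By this count the share of lower chains is near the 12.2% of all genes tested, and the 2 higher chains stand against 11.6%. DESeq2 gave 3 lower and 2 higher chains, and an unadjusted p under 0.05 (edgeR) gave 3 and 3.

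None of the nidogens, proteoglycans, fibronectin and dystroglycan passed the test without the replicate block (6 genes, edgeR, 3 lower and none higher at an unadjusted p under 0.05, 3 lower and none higher by DESeq2). Fibronectin (Fn1), a ligand of Itga5, Itga8 and Itgav receptors, was at 7606, 5658, 19582 and 19358 normalized counts in the controls and at 3791, 2598 and 5963 in the knockout. Control replicates 3 and 4 were far above the other controls, and knockout replicate 3 slightly exceeded control replicate 2. For Fn1 the log2 fold change was -1.66 (SE 0.52, 95% confidence interval -2.89 to -0.44, edgeR, adjusted p = 0.0570), with 25.4 RPKM in the controls and 8.02 in the knockout. With the block it was -1.28 (adjusted p = 0.00553), and without control replicates 3 and 4 it was -0.69 (adjusted p = 0.248).

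Nid1, which bridges laminin and collagen networks, was at 840, 688, 2413 and 2124 normalized counts in the controls and at 587, 384 and 664 in the knockout. The order of libraries was similar to that of Fn1, but without overlap between groups. Its log2 fold change was -1.48 (SE 0.49, edgeR, adjusted p = 0.0667), -1.09 with the block (adjusted p = 0.0431) and -0.49 without control replicates 3 and 4 (adjusted p = 0.245). The related Nid2 was at 455 to 548 normalized counts in the controls and at 483 to 603 in the knockout (log2 fold change 0.11, adjusted p = 0.511). It shares 7.90% of its exonic length with the opposite-strand gene Rtraf, which had 23928 counts compared with 3634 for Nid2, so that its values are uncertain if strand was not used in counting.

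Hspg2, or perlecan, was at 2704, 2966, 3552 and 4973 normalized counts in the controls and at 2441, 2248 and 2397 in the knockout. The groups were separate by a small margin, with control replicate 4 highest (log2 fold change -0.59, SE 0.20, edgeR, adjusted p = 0.0735). With the block the value was -0.37 (adjusted p = 0.0442), and without control replicates 3 and 4 it was -0.27 (adjusted p = 0.0645). Agrin (Agrn) had the highest level of the linkers and proteoglycans, 24.9 RPKM in the controls and 23.8 in the knockout. Its normalized counts were 9299, 11114, 10855 and 9358 in the controls and 8964, 10853 and 9266 in the knockout, with a log2 fold change of -0.07 (95% confidence interval -0.30 to 0.16, adjusted p = 0.676).

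Dystroglycan (Dag1) was the steadiest of all tested genes of the set between controls, with a coefficient of variation of 3.20%. It was at 11251, 12117, 11579 and 11877 normalized counts in the controls and at 10928, 11173 and 11305 in the knockout. The groups overlapped only between control replicate 1 and knockout replicate 3. The log2 fold change was -0.07 (95% confidence interval -0.19 to 0.04, edgeR, adjusted p = 0.347), at 41.9 RPKM in the controls and 39.9 in the knockout. Per length, dystroglycan was thus second to Itgb1 among the 43 genes.

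The controls differed among themselves in many of these genes. In 11 of the 39 tested genes, control replicate 3 was more than 2 times the median of the other controls, led by Itgam (5.16 times), Itgb2 (3.33), Itga5 (3.16), Itgb5 (3.13) and Itga4 (3.11). In 9 genes, the mean of control replicates 3 and 4 was more than 2 times that of replicates 1 and 2, among them Itga11 (3.12), Nid1 (2.97), Fn1 (2.94) and Lamb1 (2.65). Control replicates 3 and 4 were the highest libraries of all for 10 genes (25.6%), compared with 10.5% of all genes tested. Over the same libraries, the fibroblast and mural markers were 2.29 times higher in control replicates 3 and 4 than in 1 and 2, the endothelial markers 2.17 times, and the microglia and macrophage markers 3.91 times higher in control replicate 3 than in the median of the others. The endothelial markers were low, with sums of 1.27 to 3.48 RPKM in the controls, and only 5 of 10 had enough counts for the test. With the fibroblast and mural marker level as a further term, Itgb4 was the only gene that passed as lower and 0 genes passed as higher, with a median log2 fold change of -0.08 (edgeR). The fold changes of 4 genes that no longer passed were close to those without the term, namely Itgb3 (-0.93), Lama2 (-0.58), Lama1 (1.09) and Lamb2 (0.47), whereas Itga8 (-0.51), Itgav (-0.26), Itgb7 (-0.43) and Itgb1 (-0.11) were closer to 0 (adjusted p 0.0986 to 0.476 for these 8 genes). The part of residual cells in the lower values was not tested otherwise. In 16 genes the coefficient of variation among the controls was below 20%, including Itgb1, Itgb4, Itgb7, Itgav, Itgb8, Lama2, Lamb2, Lamc1, Agrn and Dag1.

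**Figure D4:**
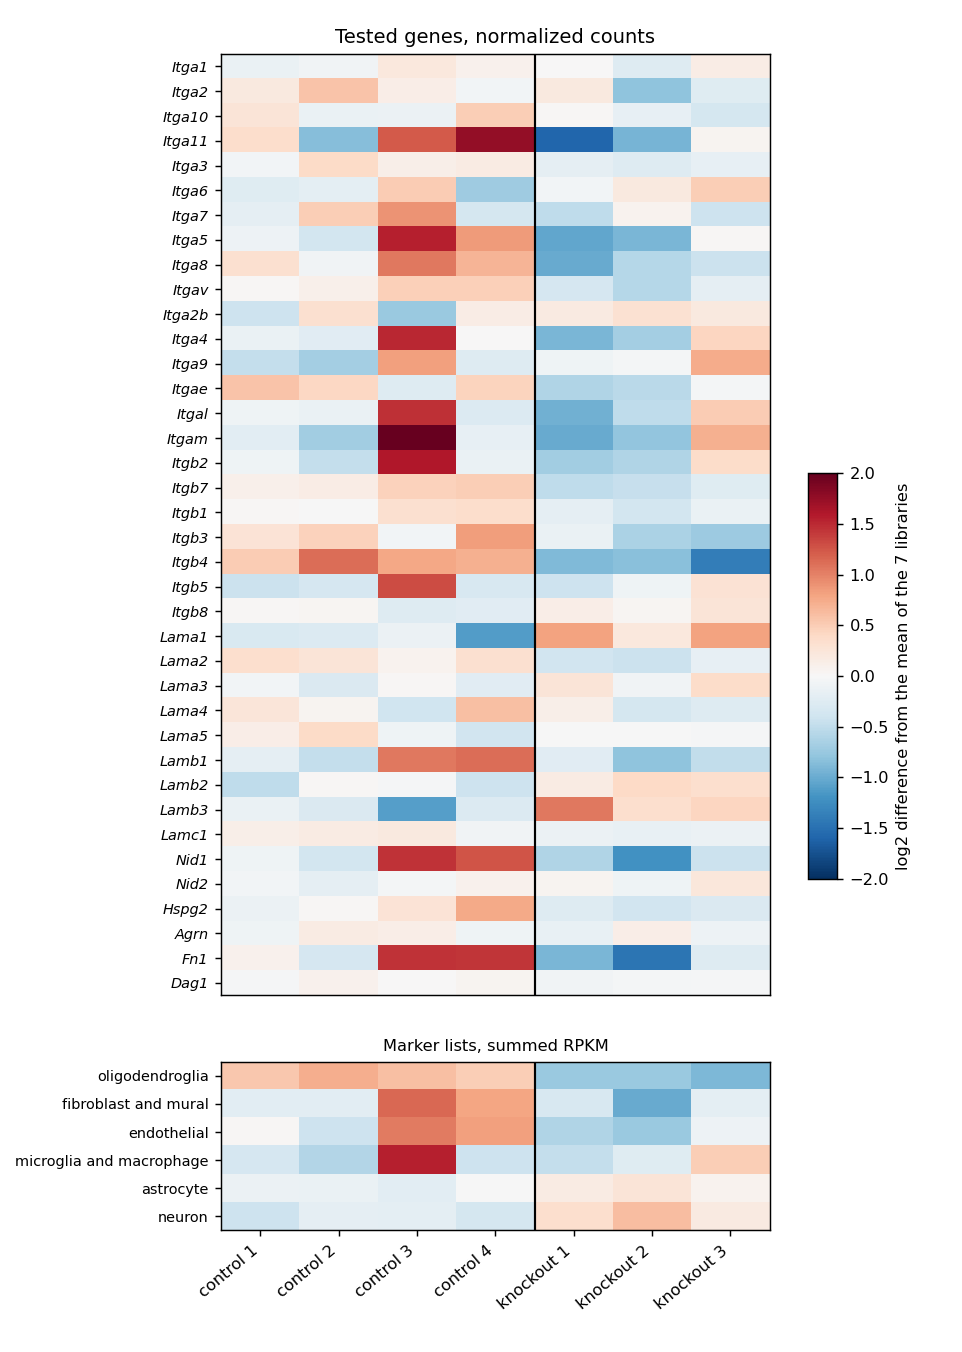
Log2 difference of each library from the mean of the 7 libraries (colour scale, clipped at -2 and 2) for normalized counts of the tested genes reported here and, in the lower panel, for the summed RPKM of 6 lists of cell type markers. Control replicates 3 and 4 are high for Fn1, Nid1, Lamb1 and the fibroblast and mural list, and control replicate 3 is high for Itgam, Itgb2, Itgal and the microglia and macrophage list, whereas Itgb4, Lama2 and Dag1 show no such peak.

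Of 31 tested adaptors and kinases on the inside of integrins, 9 were lower, 1 was higher and 21 did not pass, where 12.2% and 11.6% of all genes tested were lower and higher, and the median log2 fold change was -0.23. None reached a log2 fold change of 1 in size, and without knockout replicate 1 or 3 the lower genes were 5. With the fibroblast and mural marker level as a term, 2 were lower (Dock1 and Tns1) and 2 were higher. Tns3, a tensin at adhesion sites, was at 51690, 50735, 56378 and 59607 normalized counts in the controls and at 38864, 38697 and 38611 in the knockout (log2 fold change -0.50, SE 0.07, edgeR, adjusted p = 0.00432). Control and knockout values were clearly separate, and Tns3 passed without control replicates 3 and 4 (-0.41, adjusted p = 0.00710) but not with the marker term (-0.37, adjusted p = 0.0556). The other lower genes were Dock1 (-0.61, adjusted p = 0.00109), Actn4 (-0.67), Parvb (-0.64), Vcl (-0.58), Tns1 (-0.56), Zyx (-0.52), Bcar1 (-0.34) and Ptk2, which encodes FAK (-0.25, adjusted p = 0.0150). Of those with their highest values in control replicates 3 and 4, Zyx and Bcar1 did not pass without this pair (-0.26 and -0.31, adjusted p 0.0581 and 0.0826), whereas Parvb, Vcl and Tns1 did (-0.43, -0.31 and -0.45). With the marker term Parvb and Vcl were at -0.32 and -0.22 and did not pass (adjusted p 0.116 and 0.445). Parva was higher (0.44, adjusted p = 0.00493), in contrast to its relative Parvb. Fyn, the Src family kinase linked to integrins in oligodendrocytes, had the highest level of the list with 298 RPKM in the controls and 273 in the knockout and did not pass (log2 fold change -0.13, adjusted p = 0.313). With the replicate block, Vcl and Zyx did not pass (adjusted p 0.0675 and 0.0657), whereas Tln1 (-0.47), Ptk2b (-0.71) and Kank2 (-0.48) were lower (adjusted p 0.0159, 0.0345 and 0.0264).

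Of 19 tested genes of the dystroglycan-associated complex and its glycosylation enzymes, 2 were lower and 2 were higher, which is near the background of 12.2% and 11.6%, with a median log2 fold change of -0.05. Leaving out any library but control replicate 1 gave 1 lower gene, 1 higher gene or 1 of each, and the marker term gave 1 lower and 0 higher. The sarcoglycan Sgcd was at 134, 108, 88.0 and 135 normalized counts in the controls and at 256, 251 and 260 in the knockout (log2 fold change 1.14, SE 0.17, edgeR, adjusted p = 0.00457). The sarcoglycans Sgcb (-0.41, adjusted p = 0.00735) and Sgce (-0.32, adjusted p = 0.0280) were lower, and the dystrobrevin Dtnb was higher (0.32, adjusted p = 0.0331). With the replicate block, Sgce and Dtnb did not pass (adjusted p 0.0600 and 0.0894). Sgcb had the highest mean level of the list in the controls with 30.0 RPKM and was at 22.6 in the knockout, where the glycosyltransferase B4gat1 was highest with 23.7 RPKM, next to 25.6 in the controls (log2 fold change -0.11, adjusted p = 0.269).

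Among other ligands of integrins, 3 of 13 tested genes were lower and none was higher (edgeR, against a background of 12.2% and 11.6%, 1 higher at an unadjusted p under 0.05 and 1 by DESeq2), and the median was -0.75. Without knockout replicate 1 or 2 the lower genes were 1, and without control replicate 3 there was 1 higher gene. With the marker term 0 were lower and 1 was higher. Thrombospondin 1 (Thbs1) was at 5170, 4399, 10136 and 12706 normalized counts in the controls and at 2313, 1604 and 3008 in the knockout (log2 fold change -1.81, SE 0.42, edgeR, adjusted p = 0.0220). The groups were separate, with the same high control pair as in Fn1. Thbs1 was at -1.05 without this pair (adjusted p = 0.0438) and at -0.64 with the marker term (adjusted p = 0.123). Edil3 (-0.75, adjusted p = 0.00962) and nephronectin (Npnt, -0.34, adjusted p = 0.0475), a ligand of the Itga8 receptor, were lower too. Osteopontin (Spp1) had the highest level with 278 and 120 RPKM but did not pass (log2 fold change -1.22, SE 0.49, adjusted p = 0.118, and -0.36 without control replicates 3 and 4), and Mfge8 was at 23.2 and 19.6 RPKM (adjusted p = 0.332). With the replicate block, Fbn1 was lower as well (-1.02, adjusted p = 0.0173) and Vcam1 was higher (0.71, adjusted p = 0.0241).

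Further basement membrane genes outside the laminins and collagens comprised 2 of 15 lower and 4 higher genes, with a median of 0.11, where the share of lower genes is near the background of 12.2% and that of all higher genes was 11.6%. The lower genes were 1 without control replicate 3 or 4 and 0 without any 1 of the knockout libraries, and the marker term gave 0 lower and 2 higher. Smoc1 was at 1113, 1213, 936 and 814 normalized counts in the controls and at 2428, 2981 and 2749 in the knockout (log2 fold change 1.42, SE 0.14, edgeR, adjusted p = 0.000888). Frem1 (1.15, adjusted p = 0.00787), Fbln5 (1.12, adjusted p = 0.00422) and Fras1 (0.92, adjusted p = 0.0380) were higher as well. Without control replicates 3 and 4 Fras1 was at 0.56 (adjusted p = 0.0404), and with the marker term Frem1 and Fras1 were at 0.79 and 0.38 and did not pass (adjusted p 0.129 and 0.408). Tinagl1 was at 104, 108, 381 and 544 in the controls and at 45.1, 21.996 and 36.6 in the knockout (log2 fold change -3.08, SE 0.72, adjusted p = 0.0219), and without control replicates 3 and 4 its value was -1.66 (adjusted p = 0.0244). Fbln2 was at 1273, 1039, 7134 and 6925 in the controls and at 466, 283 and 878 in the knockout (log2 fold change -2.91, SE 0.86, adjusted p = 0.0463). Its call was lost without control replicates 3 and 4 (-1.09, adjusted p = 0.169), and with the marker term Tinagl1 and Fbln2 were at -1.18 and -0.34 and did not pass (adjusted p 0.238 and 0.520). Among the controls, replicates 3 and 4 were the highest for Tinagl1, Fbln2 and Fbln5 and the lowest for Smoc1, Frem1 and Fras1. Sparc had the highest level of the list with 117 and 67.6 RPKM (log2 fold change -0.79, adjusted p = 0.0892, and -0.28 without control replicates 3 and 4), and Bgn passed with the replicate block but not in the same fit without it (-0.99, adjusted p = 0.0403).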

How the data were processed

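The data are 7 RNA-seq libraries of primary mouse oligodendroglia. Per the labels and methods, the authors trimmed reads with Trimmomatic 0.36, aligned them with STAR 2.5.2b to GRCm38 and deposited counts of unique hits within exons per gene from Subread 1.5.2, without normalization. Strand setting and annotation release are not given in the sources used here. Symbols were found for 48970 of 49315 identifiers, and all 43 members were found in GENCODE M21 on GRCm38, 35 with the same start and end. Libraries held 24507471 to 59596479 counts, and 6.03% to 17.95% fell on Gm42418, Gm23935 and Lars2, which collect ribosomal RNA. This share was split into a low and a high level, each found in both genotypes. Among the controls it was 14.1%, 6.03%, 6.50% and 15.0% for replicates 1 to 4. The knockout libraries had 17.0%, 7.56% and 17.95%. The share was not a term in any fit, and its part in the results was not tested. A count of 0 allows up to 3 counts, for counting error only.

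The counts were tested with edgeR 4.0.16 under R 4.3.3 (filterByExpr by group, TMM, robust quasi-likelihood fit, group as the only term, two-sided), and adjusted by Benjamini-Hochberg over 18352 genes. The study itself used DESeq2 with the thresholds named in the results. Adjusted p-values printed after a gene come from this fit unless another is named. Normalized counts are counts divided by the TMM-scaled library size and multiplied by its mean, and RPKM further divides by exon length. Labels call the libraries biological replicates without naming the animals, so that p-values measure the spread between these libraries. The members and all lists were chosen with earlier results of these data known. Values per library are given for members that passed and the 2 with the highest RPKM of each role, and others were named with values. Of each further list, the text names genes at the thresholds of the study (up to 3) and the 2 with the highest RPKM. Other list genes that passed were named after their values were seen.

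Across genes, deviations from the group means correlated at 0.11, 0.46 and 0.17 between same-numbered libraries and at -0.53 to 0.20 between the others (genes are not independent replicates). All 3 pairs exceeded the limit of 0.1 set for pairing, so that values with the replicate number as a block are given where calls change. Some pairs with different numbers exceeded this limit too. Knockout replicate 1 correlated at 0.20 with control replicate 4 and at 0.11 with control replicate 1. The labels do not say what same-numbered libraries share, so the pairing is an assumption. Alternatives were DESeq2 1.42.0, DESeq2 size factors, library sizes that leave out the 100 highest genes, no low-count filter, at least 10 counts in every library, the block, the fibroblast and mural marker level (mean log2 CPM with a prior count of 2) as a term, and leaving out libraries. Scripts were tested on simulated data. The values of 1 member are not reported here, though counts over the members include it. Chromatin and qRT-PCR experiments of the study were not used here.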

Additional observations from a re-analysis of the deposited data

Results flagged for a closer look

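In 5 of the 39 tested genes, control replicate 3 lay apart from the other 3 controls, with a gap to its nearest neighbour above 0.829 of the whole range (Dixon's 95% limit). Normalized counts in control replicate 3 were 790 for Itga4 (239 to 281 in the other controls), 1535 for Itgal (461 to 525), 1916 for Itgam (266 to 383), 3290 for Itgb2 (779 to 1022) and 10003 for Itgb5 (3003 to 3259). All 5 were high values. Chance marks about 1 in 20 groups in this way, and the 5 genes share the same library, in which the microglia and macrophage markers summed to 1786 RPKM against 403 to 484 in the other controls. The part of these cells in the values was not tested.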

How the results depend on the processing

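Of 15 alternative settings, Itgb4 passed in 15, Itgb7 and Lama2 in 11, Itgav in 10, Itga8 and Itgb3 in 9, Lama1 and Lamb2 in 8 and Itgb1 in 6. The counts moved as follows. DESeq2 gave 14 lower genes, which include all 7 of the report, 6 lower at the thresholds of the study, 4 lower dystroglycan-complex genes and 1 higher ligand. The replicate block gave 13 lower and 1 higher (5 and 0 at the thresholds of the study), 1 lower and 1 higher gene of the dystroglycan complex and 1 higher ligand, and it changed no call of the set besides those named in the report. With the fibroblast and mural marker level as a term, 1 gene was lower and 0 higher (1 and 0 at the thresholds of the study), the median was -0.081, and there were 2 lower and 2 higher adaptors, 1 and 0 dystroglycan-complex genes, 0 and 1 ligands, and 0 and 2 other basement membrane genes. Without control replicates 3 and 4 there were 4 and 0 genes (1 and 0 at the thresholds of the study), 2 higher adaptors, 1 and 1 dystroglycan-complex genes, 1 higher ligand and 1 lower basement membrane gene. Library sizes without the 100 highest genes gave 1 lower dystroglycan-complex gene and 1 higher ligand. Without a filter there were 1 higher dystroglycan-complex gene, 1 lower ligand and 0 lower basement membrane genes.

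Leaving out 1 library gave 1 to 10 lower and 0 to 2 higher genes (1 to 6 and 0 to 1 at the thresholds of the study), a median of -0.47 to -0.25, 5 to 9 lower adaptors and 1 higher one, 1 to 2 lower and 1 to 2 higher dystroglycan-complex genes, 1 to 4 lower and 0 to 1 higher ligands, and 0 to 3 lower and 3 to 5 higher basement membrane genes. It turned the sign of Agrn (-0.16 to 0.0031), Itga1 (-0.15 to 0.056), Itga9 (-0.043 to 0.72), Itgam (-1.65 to 0.21), Itgb5 (-0.50 to 0.32) and Lama5 (-0.15 to 0.084), none of which passed the test. The marker term turned Itga1 (0.22), Itga11 (0.19), Itga4 (0.44), Itga5 (0.20), Itgal (0.40), Itgam (1.09), Itgb2 (0.62), Itgb5 (0.70), Lamb1 (0.21) and Nid1 (0.015). Without control replicates 3 and 4, Itga1 (0.073), Itgam (0.31), Itgb2 (0.046) and Itgb5 (0.34) turned, and with the 100 highest genes left out of library sizes, Itga1 (0.017) and Lama5 (0.015). The cause was not tested. No gene that passed the test changed its sign under these alternatives. With 3 and 4 libraries per group, calls near the threshold depended on single libraries, and Itgad, Itgb6, Itgax and Lamc3 had too few counts to be tested.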
